A study of Drosophila melanogaster with 10 samples.

Results

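The transcriptome of control S2 cells was described from 2 of the 10 samples of the series, the RNA-seq libraries named Control-KD, replicates 1 and 2. They were chosen by their label and not by a measured value, although earlier results of these data were known. The series also holds 2 RNA-seq libraries of S2 cells after knockdown of *Elys* (a nucleoporin gene) and 6 DamID-seq libraries, which are not analysed here. S2 is an established *Drosophila melanogaster* line, and in the control the cells were treated with double-stranded RNA against *LacZ*, a bacterial gene that the fly does not carry. Thus, the values describe a control of an RNA interference experiment and not untouched cells. RNA was selected for poly(A) tails before sequencing.

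S2 cells were derived from late embryos and are widely used as a model of hemocytes, the blood cells of the fly. Hemocytes fall into plasmatocytes, which are macrophages that engulf debris and secrete basement membrane, crystal cells, which carry enzymes of melanization, and lamellocytes, which encapsulate parasites. Signalling pathways lead from a secreted or membrane-bound ligand through a receptor to components inside the cell that act on transcription or growth.

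Levels are given as TPM (transcripts per 1000000), a share of the library corrected for gene length, so they can be set against each other between genes. A gene counted as silent at a mean of at most 1 TPM, low up to 10, moderate up to 100, abundant up to 1000 and very abundant above that. Where a gene is given with 2 values, they are those of replicates 1 and 2. Estimated counts summed to 68034643 in replicate 1 and 61350395 in replicate 2. In a gene of median length, 3 counts corresponded to 0.0346 and 0.0391 TPM, far below the edge set for silent genes. The labels number the libraries as replicates 1 and 2, and the study's methods call them biological replicates. With 2 libraries of 1 group no test was run, and the spread between them is the only error available.

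Of 13937 genes, 7544 (54.1%) exceeded 1 TPM, 5922 (42.5%) exceeded 10 TPM and 1330 (9.54%) exceeded 100 TPM. The remaining 6393 genes (45.9%) were silent, among them 1977 with no count in either library and 3656 with at most 3 counts in each. Counts of list members in the later paragraphs are to be read against these shares of all genes. Together the silent genes made up 0.0751% of all TPM, whereas 136 very abundant genes held 52.3%. The 118 most abundant genes already carried 50% of the transcripts. Levels formed a broad lower peak and a narrower upper one. When genes were counted per doubling of TPM, the upper peak lay between 16 and 32 TPM with 1565 genes, the lower between 0.0312 and 0.0625 TPM with 721 genes, and the trough between 1 and 2 TPM with 397 genes. The 1622 low genes thus occupied the valley between silent and moderate ones. The lower peak lay at the counting floor, since 3 counts in a gene of median length gave 0.0346 and 0.0391 TPM. Genes without a count fell in no bin, so the shape of the lower peak cannot be separated from the counting limit. Very abundant genes were short, with a median length of 749 bp, compared to 2055 bp for moderate and 1270 bp for silent genes.

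**Figure D1:**
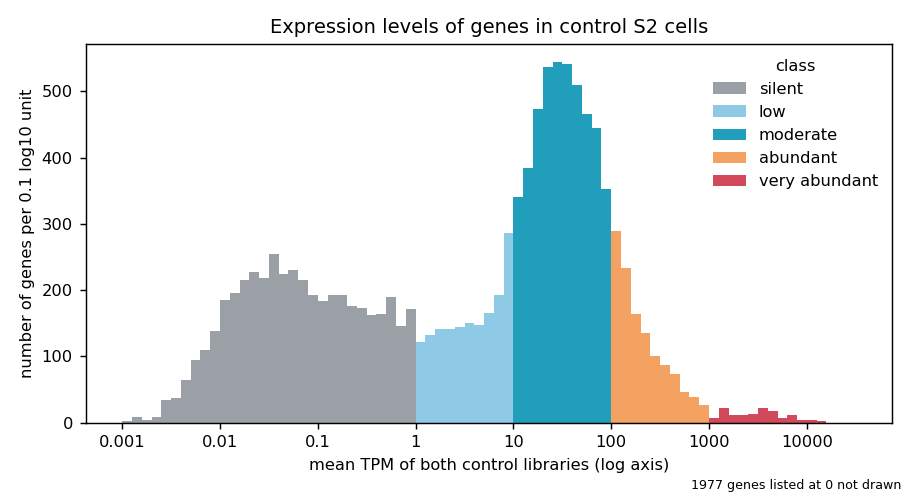
Number of genes (y axis, per 0.1 log10 unit) by mean TPM of both control libraries (x axis, log scale), coloured by class. The upper peak falls in the moderate class (4592 genes), the lower in the silent class, and the 1977 genes listed at 0 are not drawn.

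Both libraries gave nearly the same levels. Across the 13937 genes, log2(TPM + 0.1) correlated with Pearson r = 0.997, as a description, since genes are not replicates. The SD of the log2 ratio between the libraries was 0.04 among very abundant, 0.09 among abundant, 0.16 among moderate, 0.54 among low and 0.40 among silent genes. Among the 5922 genes over 10 TPM, only 11 lay more than 2-fold apart, and all of them are copies of replication-dependent histone genes. *His4:CG33889* had 21.4 and 0 TPM, *His2A:CG31618* had 32.8 and 180 TPM, and *His2A:CG33823*, *His2A:CG33826* and *His2A:CG33829* had 33.9, 31.1 and 29.6 TPM in replicate 1 against 8.13, 8.14 and 7.79 TPM in replicate 2. These copies are nearly identical in sequence, and reads cannot be assigned among them with certainty. The summed level of the 20 *His2A* copies was 274 and 260 TPM, so the family did not show the gap seen in its members.

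The most abundant transcripts encoded the ribosome. Of the 15 highest genes, 13 are ribosomal protein genes, led by *RpLP1* (14353 and 14163 TPM), *RpL35* (13946 and 13578 TPM), *RpL28* (11401 and 11370 TPM) and *RpS23* (11249 and 11153 TPM). *RpL39*, *RpS16*, *RpL41*, *RpL23*, *RpS30*, *RpL32*, *RpL34b* and *RpS19a* were among those that followed, between 10742 and 7281 TPM (means of both libraries). The other 2 of the 15, with identifiers FBgn0000556 and FBgn0025286, could not be matched to a symbol in the name tables used here, and averaged 9985 and 7672 TPM. Ribosomal protein genes took at least 73 places of the first 100, of which 8 could not be matched to a symbol and so to no list.

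In all, 81 of 84 ribosomal protein genes exceeded 1 TPM, with a median of 3925 TPM, and they carried 38.9% and 38.5% of all TPM. Their share of the estimated counts, which are not corrected for length, was 16.5% on average. Large subunit genes held 23.5% and small subunit genes 15.2% of TPM (mean of both libraries). The 3 silent members were *RpL10Aa* (listed at 0 in both libraries, where 3 counts would have been 0.0821 and 0.0929 TPM), *RpS28a* (0.771 and 0.292 TPM) and *RpL37-2* (1.03 and 0.751 TPM). Each has a close relative of the same name. *RpL37-1*, for example, stood at 4354 and 4360 TPM.

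Among genes with a symbol and outside the gene lists, the 10 most abundant were *Df31*, *eEF2*, *awd*, *CtsL1*, *CG16762*, *Rack1*, *Hsp70Bb*, *CG11686*, *Tctp* and *smt3*. *Df31*, a histone-binding chromatin protein, had 4902 and 4850 TPM. *eEF2*, the elongation factor that moves the ribosome along the mRNA, had 4153 and 4357 TPM. *awd*, a nucleoside diphosphate kinase, had 3606 and 3514 TPM. *CtsL1*, a lysosomal cathepsin, had 2222 and 2271 TPM, which placed a protease of the lysosome among the 100 most abundant genes of the cell.

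Other machinery of protein production and turnover was widely expressed. All 71 genes of mitochondrial ribosomal proteins (median 84.6 TPM) exceeded 10 TPM. So did all 16 aminoacyl-tRNA synthetase genes (median 108 TPM) found by a name pattern that leaves out symbols with a suffix. Of 47 proteasome genes 36 (76.6%) exceeded 1 TPM, compared to 54.1% of all genes. The 11 silent ones all carry a suffix that marks a second copy, such as *Prosalpha3T* or *Rpn13R*. *Prosalpha1R* (1364 and 1320 TPM) and *Prosalpha1* (211 and 220 TPM) are nearly identical, so only their sum of 1575 and 1540 TPM can be read with confidence.

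Chaperone genes were high as well, and all 20 matched members exceeded 10 TPM. *Hsp83*, the fly Hsp90, had 4390 and 4461 TPM. The inducible heat shock genes were part of this picture, with *Hsp26* at 856 and 804 TPM, *Hsp68* at 734 and 707 TPM and *Hsp22* at 158 and 147 TPM. The 6 nearly identical *Hsp70* copies summed to 6945 and 6669 TPM, above *Hsp83*, although the cells are labelled as a control and no heat treatment is named. *Hsf*, which encodes the transcription factor of the heat shock response, had 53.0 and 54.3 TPM.

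Genes of dividing cells were on throughout. All 24 matched cell cycle genes exceeded 1 TPM and 23 exceeded 10 TPM. *PCNA*, the sliding clamp of DNA replication, had 471 and 485 TPM, *polo*, a mitotic kinase, had 199 and 207 TPM, and the mitotic cyclin gene *CycB* had 148 and 152 TPM. The lowest was *fzr* (7.32 and 7.30 TPM), which directs cyclin destruction as cells leave the cycle. The 111 replication-dependent histone genes summed to only 450 and 432 TPM. Their mRNAs normally end without a poly(A) tail, and RNA was selected for that tail, so this sum is no measure of histone mRNA in the cell. In contrast, the histone genes with polyadenylated mRNA *His4r* (1614 and 1552 TPM), *His2Av* (960 and 972 TPM) and *His3.3B* (829 and 874 TPM) stood among the abundant and very abundant genes. *Elys* itself, the gene on which the series turns, had 28.3 and 30.2 TPM, close to the median of 29.8 TPM over genes above 1 TPM.

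The use of S2 cells as a hemocyte model was set against marker lists. Of 14 plasmatocyte markers, 9 (64.3%) exceeded 1 TPM and 6 (42.9%) exceeded 10 TPM, close to the 54.1% and 42.5% of all genes, so the count alone does not set the list apart. *Pvr*, the receptor for PDGF- and VEGF-related factors that hemocytes need to survive, was highest at 360 and 382 TPM. *crq*, a scavenger receptor for dying cells, had 92.8 and 95.7 TPM. The GATA factor gene *srp*, which specifies hemocytes, had 66.4 and 69.4 TPM, its cofactor gene *ush* had 60.7 and 62.6 TPM, and *zfh1* had 40.1 and 42.5 TPM.

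The other 9 plasmatocyte markers lay below these. *Hml*, a clotting protein gene that serves as the usual plasmatocyte marker, had 11.6 and 14.3 TPM, and *Pxn* (peroxidasin) had 6.57 and 6.14 TPM. The phagocytic receptor gene *eater* had 1.91 and 2.00 TPM and the engulfment receptor gene *drpr* had 1.43 and 1.39 TPM. *He* (0.372 and 0.460 TPM) and *Sr-CI* (0.0436 and 0.0689 TPM) were silent. *NimC1*, another phagocytic receptor gene, gave 1 count in replicate 1 and 0 in replicate 2, and the same held for *gcm*. *gcm* and *gcm2* (0.0217 and 0.0244 TPM) encode factors that direct plasmatocyte fate in the embryo. Thus, both the transcription factor genes and the surface receptor genes of the list held expressed and silent members.

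Basement membrane genes, which plasmatocytes express strongly, exceeded 10 TPM in 6 of 7 matched cases. *SPARC*, a collagen-binding glycoprotein gene, had 296 and 297 TPM. The laminin genes *LanA* (144 and 157 TPM) and *LanB1* (77.1 and 81.3 TPM) lay far above the collagen IV genes *Col4a1* (16.5 and 17.6 TPM) and *vkg* (10.1 and 10.5 TPM). *Ndg*, which encodes nidogen, the linker between laminin and collagen, was silent at 0.245 and 0.217 TPM.

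Markers of the other hemocyte types were mixed within each list. For crystal cells, the prophenoloxidase gene *PPO2* had 10.1 and 11.1 TPM, but *lz*, the RUNX factor gene that specifies these cells, had 0.00549 and 0.0186 TPM. For lamellocytes, *PPO3*, their own prophenoloxidase gene, had 26.5 and 27.6 TPM, whereas the surface antigen gene *atilla* was listed at 0 in both libraries, where 3 counts would have been 0.0847 and 0.0958 TPM. *ItgaPS4*, a lamellocyte integrin gene, had 0.182 and 0.194 TPM. The other listed lamellocyte genes, *mys*, *msn* and *cher*, exceeded 80 TPM, but they are used by many cell types. Among prohemocyte and niche genes, *Tep4* (60.4 and 65.0 TPM) and *dome* (52.2 and 53.8 TPM) were moderate, and *Antp*, *hh* and *kn*, which mark the niche of the larval lymph gland, were silent.

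**Figure D2:**
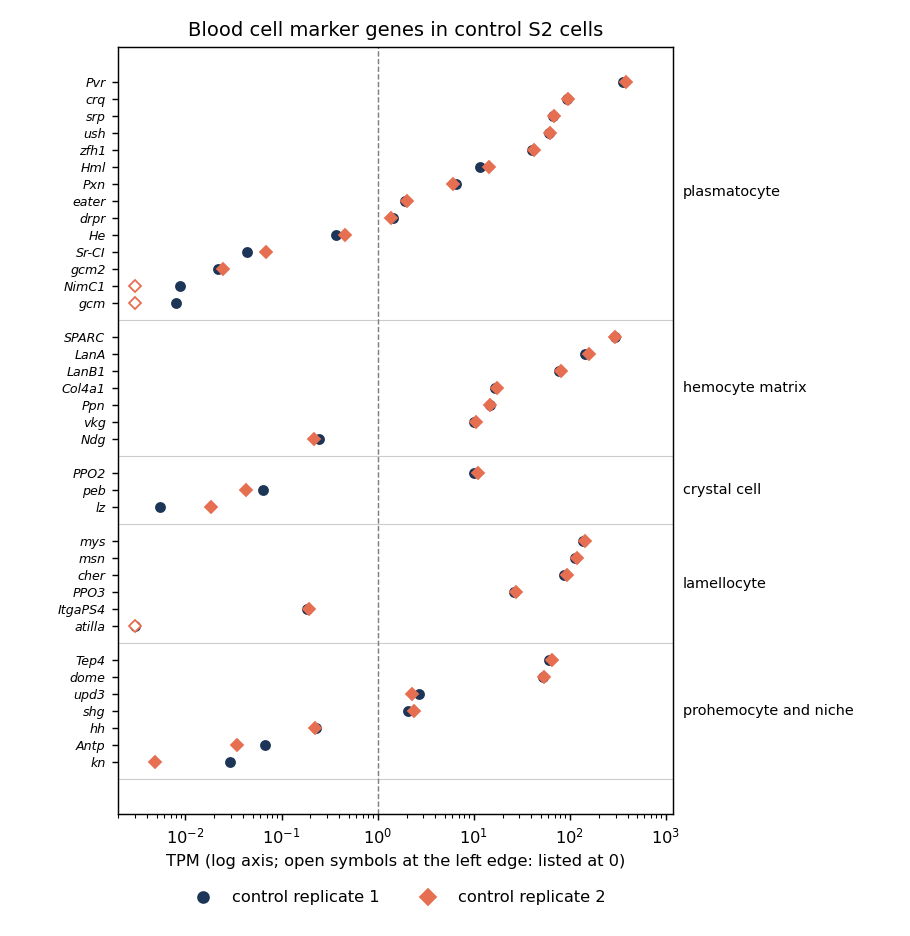
TPM (x axis, log scale) of hemocyte marker genes (y axis) in control replicates 1 (circles) and 2 (diamonds), grouped by list, with a dashed line at 1 TPM. *Pvr*, *crq*, *srp* and *ush* stand above 60 TPM, whereas *NimC1*, *gcm*, *lz* and *atilla* lie at or near 0.

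Most genes of the innate immune pathways were expressed. In the Imd pathway, which senses peptidoglycan of Gram-negative bacteria, 11 of 12 genes exceeded 1 TPM, with the NF-kappaB gene *Rel* at 75.5 and 71.8 TPM, *imd* at 52.2 and 54.5 TPM and the receptor gene *PGRP-LC* at 38.9 and 39.4 TPM. The exception was *PGRP-LB* (0.135 and 0.120 TPM), an amidase gene that dampens the response. In the Toll pathway 11 of 12 matched genes exceeded 1 TPM, including both NF-kappaB genes *dl* (67.1 and 69.1 TPM) and *Dif* (17.1 and 17.7 TPM). *SPE*, the protease gene that activates the Toll ligand, was silent (0.390 and 0.458 TPM), while the ligand gene *spz* had 61.5 and 59.8 TPM.

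The median of 13 matched antimicrobial peptide genes was 2.18 TPM. Of these genes 9 (69.2%) exceeded 1 TPM, compared to 54.1% of all genes. Only 3 (23.1%) exceeded 10 TPM, compared to 42.5% of all genes. These were *CecA1* (50.2 and 44.2 TPM), *Dro* (33.1 and 28.0 TPM) and *CecB* (13.5 and 11.8 TPM), and *CecA1* shares sequence with other cecropin genes, so that single copies are uncertain. The diptericin gene *DptA* (0.637 and 0.361 TPM) and *AttC* (0.0229 and 0.0775 TPM) were silent. All 9 genes of RNA interference and microRNA processing exceeded 10 TPM. *AGO2*, the slicer of small interfering RNA, was highest at 191 and 204 TPM, and *Dcr-2*, which cuts double-stranded RNA, had 27.5 and 28.4 TPM. Both libraries come from cells that had been given double-stranded RNA, and whether this touched the levels of these genes was not tested.

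Genes of both dosage compensation and sex determination were expressed. In males, dosage compensation raises transcription of the X chromosome through the MSL complex, whose gene *msl-2* is repressed in females by the product of *Sxl*. All 6 matched genes of the complex and its recruitment exceeded 1 TPM, among them *msl-2* (9.44 and 10.2 TPM), *mof*, the histone acetyltransferase gene (58.0 and 65.7 TPM), and *Clamp*, the gene of a recruiting zinc finger protein (114 and 114 TPM). *Sxl* was also present at 25.2 and 26.7 TPM. A gene level does not separate the male and female splice forms of *Sxl*, *tra* (39.3 and 35.6 TPM) or *fru* (58.8 and 62.4 TPM), so these values do not show which product is made. *dsx*, the last factor of the cascade, was just below the limit with 0.842 and 0.903 TPM.

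The genes assigned to the Y chromosome gave no reads. All 10 of them had 0 counts in both libraries, including the matched genes of the Y-linked list, *kl-2*, *ORY*, *Ppr-Y*, *ARY*, *Pp1-Y1* and *Pp1-Y2*. The other 4 genes of that list could not be matched. The matched genes act in the male germ line, so their silence does not tell whether the cells carry a Y chromosome. On the X chromosome, 1209 of 2097 genes (57.7%) exceeded 1 TPM, compared to 53.2% of 11228 genes on chromosomes 2 and 3. Among genes over 1 TPM, the median was 26.2 TPM on the X and 30.6 TPM on chromosomes 2 and 3, a ratio of 0.856 (0.843 and 0.856 in replicates 1 and 2). The ratio was 0.881 for genes over 10 TPM and turned to the other side of 1, at 1.02, when all genes with a count were taken. The copy number of the chromosomes in these cells was not measured. On chromosome 4, 51 of 78 genes exceeded 1 TPM.

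Germ line genes were split. *aub* (70.9 and 72.2 TPM) and *AGO3* (24.6 and 26.1 TPM), which encode the Argonaute proteins of the piRNA ping-pong cycle, were moderate. The piRNA biogenesis gene *zuc* had 19.7 and 19.8 TPM. *piwi*, the nuclear member of the same family, had 3.16 and 3.31 TPM. The germ cell genes *vas* (0.161 and 0.108 TPM), *nanos* (0.320 and 0.390 TPM) and *osk* (0.641 and 0.635 TPM) were silent. *bam*, the differentiation gene of germ line stem cell daughters, was an exception at 53.4 and 54.8 TPM. *grk* (22.7 and 22.3 TPM) overlaps *Akap200* in the annotation, which averaged 543 TPM. In the same way, *zuc* overlaps *CG34163* (mean 56.3 TPM) and *aub* overlaps *TTLL4A* (mean 21.0 TPM), so these levels are uncertain. Overlap was called from gene spans in a later release of the annotation, and shared exons were not checked. Where exons are shared, it is not known whether strand was used to tell the reads apart.

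Genes of sex-specific tissues were nearly all silent. None of 45 accessory gland genes and none of 3 yolk protein genes exceeded 1 TPM on average. In the testis list 3 of 20 genes did, *mia* (17.1 and 17.5 TPM), *twe* (3.23 and 2.90 TPM) and *bol* (1.34 and 1.46 TPM), and 9 had no count in either library. *Cp18* was the only one of 15 eggshell genes over 1 TPM, at 1.60 and 1.57 TPM.

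The core of energy metabolism was fully expressed. All 11 matched glycolysis genes exceeded 1 TPM, with *Eno* (711 and 740 TPM), *Gapdh2* (684 and 693 TPM) and *Gapdh1* (472 and 493 TPM) at the top. *Pfk*, whose product catalyses the committed step, was much lower at 13.5 and 15 TPM, and *Ldh*, which makes lactate, was lowest at 7.84 and 8.79 TPM. All 4 genes of the pentose phosphate pathway and all 11 matched genes of the tricarboxylic acid cycle exceeded 10 TPM.

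Nuclear genes of the respiratory chain and ATP synthase carried 3.18% of TPM in each library, and the 13 protein genes of the mitochondrial genome 1.24% and 1.28%. Of the 89 nuclear genes 67 exceeded 1 TPM, and 63 of these exceeded 100 TPM. Of the 22 silent genes 21 have a symbol that marks them as a related copy (*SdhAL*, *ATPsynCF6L*), and the other was *ND-B8* (0.0683 and 0 TPM). On the mitochondrial genome, *mt:ATPase6* was highest at 3751 and 3757 TPM and *mt:ND6* lowest at 11.5 and 9.98 TPM.

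In lipid synthesis *Desat1*, a fatty acid desaturase gene, had 480 and 519 TPM, and *SREBP*, the transcription factor gene of this pathway, had 312 and 351 TPM. In contrast, *Lsd-2*, which encodes a coat protein of lipid droplets, was listed at 0 in both libraries (3 counts would have been 0.0242 and 0.0274 TPM), while its relative *Lsd-1* had 5.46 and 5.68 TPM. Genes of sugar release and export were mixed. *Tps1*, which makes the blood sugar trehalose, had 0.170 and 0.132 TPM and *G6P* was listed at 0, whereas *Treh*, which splits trehalose, had 35.8 and 35.4 TPM. *Pepck1*, an enzyme gene of gluconeogenesis, was moderate at 69.6 and 74.3 TPM.

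Redox genes were abundant, with the peroxiredoxin gene *Prx2* at 1721 and 1719 TPM and *Sod1* at 805 and 804 TPM. The 2 secreted ferritin chains stood far apart. *Fer1HCH*, the heavy chain gene, had 649 and 683 TPM, and *Fer2LCH*, the light chain gene, had 3.83 and 4.25 TPM. Of 35 glutathione transferase genes 26 (74.3%) exceeded 1 TPM, compared to 54.1% of all genes, led by *GstE6* (491 and 508 TPM). Of 78 cytochrome P450 genes 28 (35.9%) exceeded 1 TPM, below the share of all genes, with *Cyp6a20* at 57.2 and 59.1 TPM on top.

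Signalling genes were sorted by role, a grouping made after the values were seen, and not every listed gene was given a role. The shares therefore describe only the genes chosen. Of 69 genes of intracellular components, 68 exceeded 1 TPM and 66 exceeded 10 TPM, with a median of 32.1 TPM. Of 24 receptor genes, 18 (75%) exceeded 1 TPM and 11 exceeded 10 TPM (median 9.68 TPM). Of 39 ligand genes, 17 (43.6%) exceeded 1 TPM and 9 exceeded 10 TPM (median 0.706 TPM). Over all genes 54.1% exceeded 1 TPM and 42.5% exceeded 10 TPM, with a median of 2.68 TPM, so the shares of receptors over 10 TPM (45.8%) and of ligands over 1 TPM lie near those of all genes. The exception among these 69 intracellular genes was *ci*, the transcription factor gene of the Hedgehog pathway, at 0.0383 and 0.0649 TPM. *stumps*, listed with the FGF receptor genes (0.151 and 0.154 TPM), and *Hr3*, *Hr4* and *Eip93F* of the ecdysone list were also silent. They were not among the 69, whereas *pll* of the Toll pathway was. The genes that keep Ci in check, *cos* (23.2 and 25.3 TPM) and *Su(fu)* (32.7 and 33.5 TPM), and the receptor gene *ptc* (16.7 and 16.3 TPM) were present without it.

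**Figure D3:**
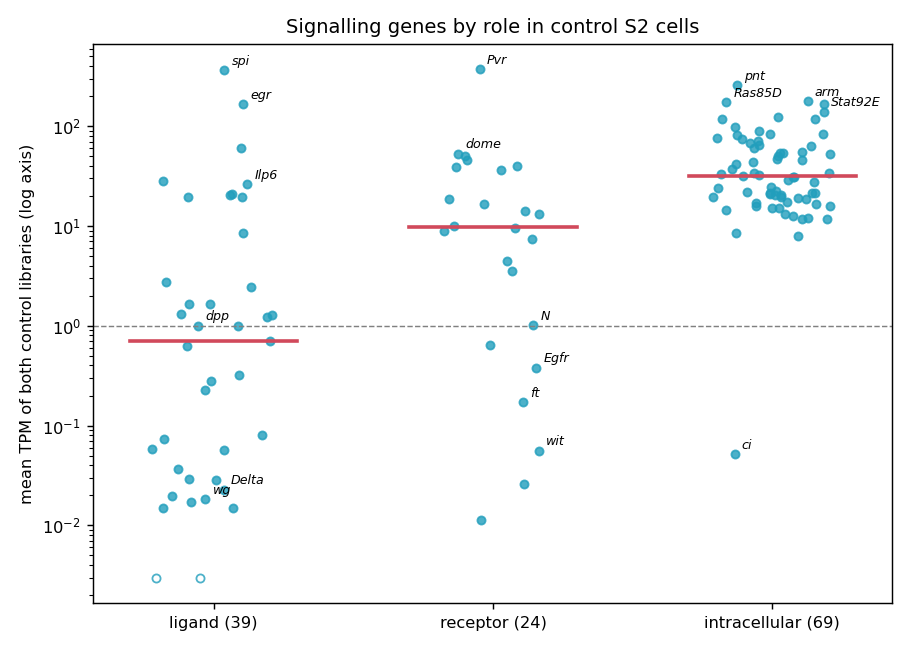
Mean TPM of both control libraries (y axis, log scale) for signalling genes grouped as ligands, receptors and intracellular components; points are genes, red lines medians, open points genes listed at 0. Medians are 0.706, 9.68 and 32.1 TPM, and *ci* is the only one of the 69 intracellular genes chosen that lies below 1 TPM. Not every listed signalling gene was given a role.

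Ligands and receptors of the same pathway were then set side by side. *spi*, the main ligand gene of the EGF receptor, had 365 and 368 TPM, and the Ras pathway genes *Ras85D* (176 and 175 TPM) and *pnt* (252 and 262 TPM) were abundant, but *Egfr* was silent at 0.374 and 0.388 TPM. *Pvr* was present together with its ligand gene *Pvf2* (21.2 and 20.5 TPM), while *Pvf1* (0.563 and 0.70 TPM) was silent and *Pvf3* (1.13 and 0.838 TPM) lay at the limit. *egr*, the fly TNF gene, had 165 and 169 TPM. Of its receptor genes *wgn* had 35.9 and 37.0 TPM and *grnd* gave 0 and 2 counts.

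In the Notch pathway the receptor gene *N* lay at the limit (0.965 and 1.05 TPM) and the ligand genes *Delta* (0.0292 and 0.0162 TPM) and *Ser* (0.0864 and 0.0605 TPM) were silent. *Su(H)*, the DNA-binding partner of Notch, had 8.32 and 8.82 TPM. Of 11 matched genes of the *E(spl)* complex, which Notch activates in many tissues, 3 exceeded 1 TPM, with *E(spl)mbeta-HLH* at 19.0 and 17.7 TPM. In JAK/STAT signalling, the receptor gene *dome*, the kinase gene *hop* (20 and 21.3 TPM), *Stat92E* (137 and 143 TPM) and the feedback inhibitor gene *Socs36E* (75.8 and 73.9 TPM) were present, and of the ligands *upd3* had 2.68 and 2.26 TPM, *upd2* 1.24 and 1.38 TPM and *upd1* 0.0141 and 0.0155 TPM.

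Growth signalling was expressed with its brakes. *ImpL2*, a secreted binding protein gene that blocks insulin-like peptides, had 331 and 335 TPM, and *Ilp6* was the highest insulin-like peptide gene at 25.4 and 27.4 TPM. *Thor*, the 4E-BP gene that limits translation, had 90.4 and 102 TPM. In the Hippo pathway 10 of 12 genes exceeded 10 TPM, with *yki*, the growth-promoting coactivator gene, at 90.6 and 89.9 TPM, and the silent members were the atypical cadherin genes *ft* (0.165 and 0.176 TPM) and *ds* (0.0274 and 0.0250 TPM). Of the ecdysone list, both receptor genes *EcR* (8.40 and 9.29 TPM) and *usp* (23.0 and 24.4 TPM) were expressed, and hormone synthesis genes such as *phtm* and *dib* were silent. Among the hormone's targets, *MsrA* had 188 and 202 TPM and *Eip75B* 38.9 and 41.6 TPM, while *Eip93F* and *Hr3* were silent.

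Genes of other tissues were mostly silent. Over the 14 lists of nervous system, muscle, fat body, gut, cuticle, sense organs, salivary gland, trachea and embryonic patterning, 48 of 550 genes exceeded 1 TPM, compared to 54.1% of all genes, and 15 exceeded 10 TPM. These lists were drawn up as silent tissue programmes with earlier results of these data known, so their low share is no independent finding. Together the 550 genes held 0.0626% and 0.0637% of TPM, and 340 had at most 3 counts in each library. None of 44 neuronal adhesion genes (*dpr*, *DIP* and *beat* families) and none of 8 Hox genes exceeded 1 TPM. *Abd-B* was the highest Hox gene at 0.215 and 0.241 TPM.

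**Figure D4:**
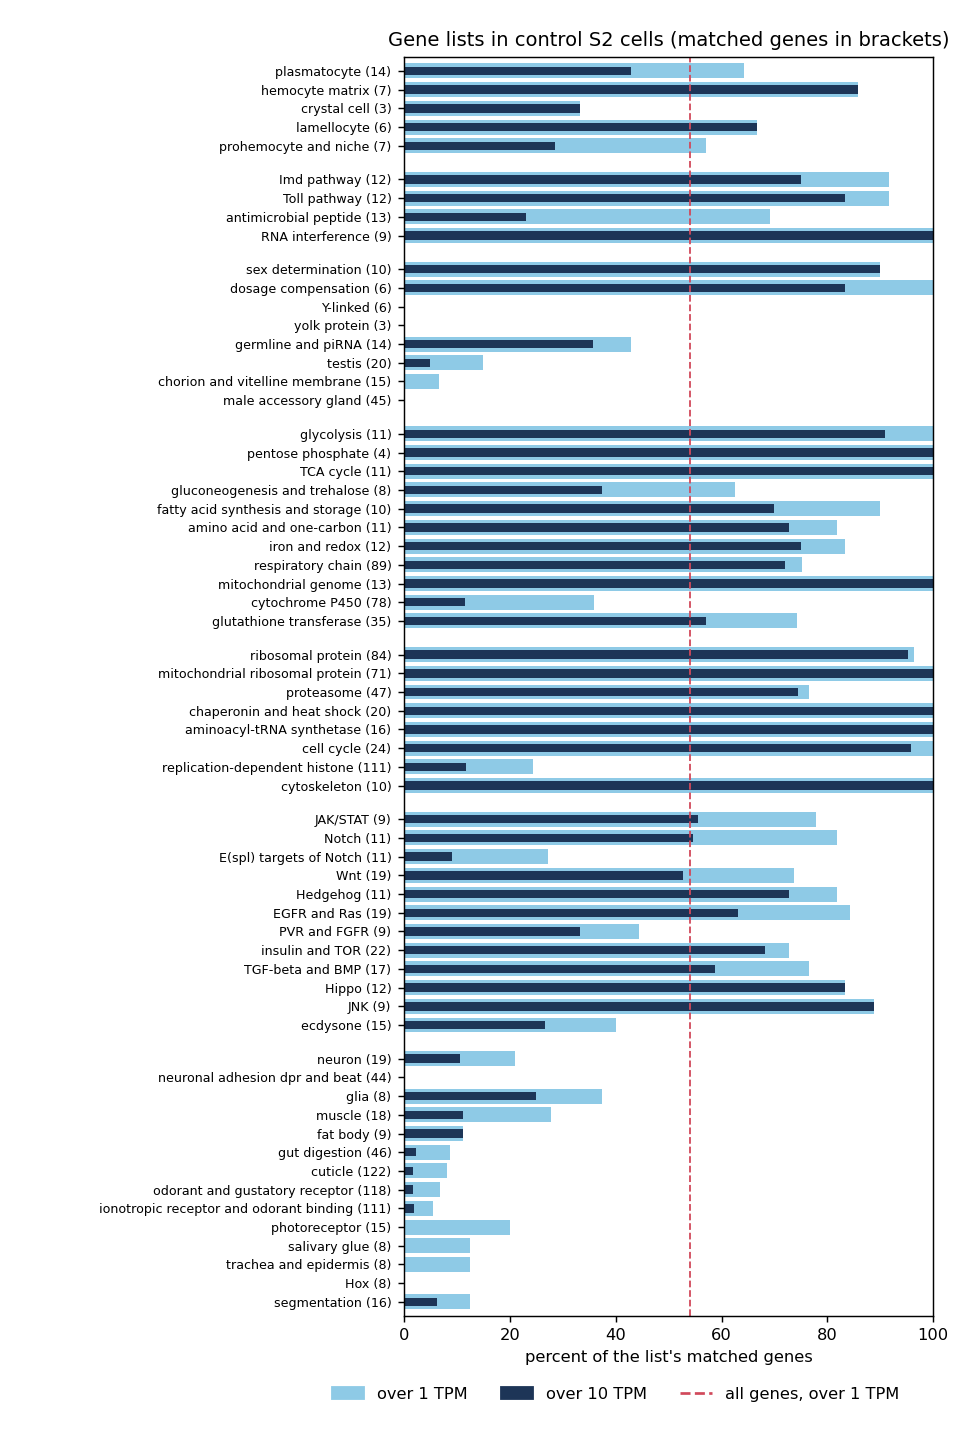
Percent of the matched genes of each of 62 lists (y axis, number of matched genes in brackets) that exceeded 1 TPM (light bars) or 10 TPM (dark bars) as the mean of both control libraries, with the 54.1% of all genes over 1 TPM as a dashed line. The lists of RNA interference, the TCA cycle and aminoacyl-tRNA synthetases reach 100%, and those of cuticle, gut, chemosensory genes and male accessory gland stay below 10%.

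The 15 genes over 10 TPM were spread over 9 of these lists. In the neuron list they were *Ace*, the acetylcholinesterase gene (28.6 and 30.7 TPM), and *Syx1A*, a syntaxin gene of membrane fusion (22.7 and 25.3 TPM), which overlaps *eIF4EHP* (mean 19.6 TPM) and is uncertain. *elav*, the usual marker of neurons, had 2.85 and 3.62 TPM. In the glia list *loco* (64.4 and 63.0 TPM) and *nrv2* (60.7 and 59.3 TPM) were moderate, but *repo*, the glial fate gene, was silent (0.0628 and 0.0387 TPM). In the muscle list *how*, an RNA-binding protein gene, had 25.3 and 27.1 TPM and *Mef2* 11.1 and 11.6 TPM, and *Mhc*, the muscle myosin gene, was silent (0.123 and 0.136 TPM).

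In the fat body list *Apoltp*, a lipid transfer protein gene, stood alone at 28.5 and 31.1 TPM, and the storage protein gene *Lsp2* had 0.0228 and 0.128 TPM. In the gut list the exception was *Mal-A5* (10.5 and 10.8 TPM), a maltase gene. In the cuticle list of 122 genes they were *Cpr67Fb* (14.8 and 14.9 TPM) and *Cpr11A* (12.8 and 14.6 TPM). *hry*, a pair-rule gene that acts as a repressor in many tissues, had 77.6 and 76.4 TPM, the highest of the 16 segmentation genes.

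Most sense organ genes were silent. Of 15 matched photoreceptor genes 3 (20%) exceeded 1 TPM, with the ion channel gene *trpl* highest at 6.46 and 6.41 TPM. Of 118 odorant and gustatory receptor genes 8 exceeded 1 TPM, and of 111 ionotropic receptor and odorant binding protein genes 6 did. *Obp99c*, an odorant binding protein gene, was highest at 85.4 and 86.5 TPM. *Gr61a*, a gustatory receptor gene, had 15.3 and 15.2 TPM. *Or43b* (10.4 and 10.8 TPM) overlaps *Cul1* (mean 104 TPM) and *Ir76a* (22.3 and 22.3 TPM) overlaps *CG14102* (mean 11.4 TPM), so the levels of both are uncertain.

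Related genes were also compared within pairs. Of 20 pairs of a widely used gene and a relative that is mostly tied to a tissue, 14 had both members matched. The widely used member was higher in 13, and its relative was silent in 8. The pairs were chosen for this contrast in use, with earlier results of these data known, so the counts are a description and no independent finding. They are also not independent of each other, since *Act5C* is paired with both *Act57B* and *Act88F*. The muscle actin gene *Act57B* had 6.72 and 8.0 TPM, against 3742 and 3867 TPM for the cytoplasmic actin gene *Act5C*. *LamC*, the lamin gene of differentiated cells, had 5.36 and 5.05 TPM, against 208 and 226 TPM for *Lam*, so the mean of *Lam* was 41.7 times higher. The germ line gene *RpL22-like* had 0.131 and 0.167 TPM, against 1454 and 1477 TPM for *RpL22*. *Gapdh2* and *Gapdh1* were the pair in which the order was turned, and both are used widely.

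**Figure D5:**
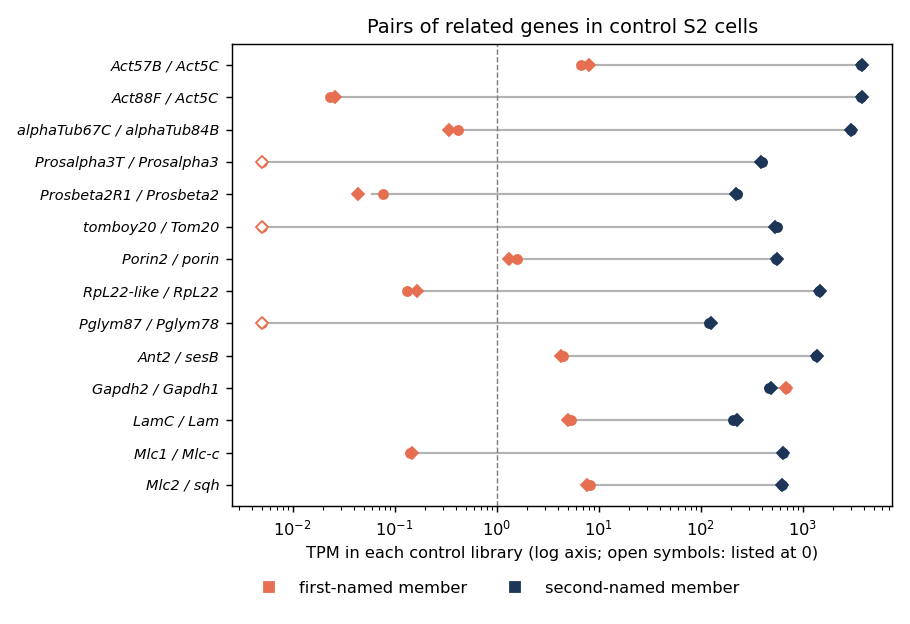
TPM (x axis, log scale) in replicates 1 (circles) and 2 (diamonds) of 14 pairs of related genes (y axis), with the tissue-tied or alternative member named first (orange) and the widely used member second (dark blue). In 13 pairs the orange points lie left of the blue ones, and *Gapdh2* is the exception.

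Silent genes were followed along the chromosomes. Of 6174 silent genes that could be ordered by name in a later release of the annotation, 3487 (56.5%) stood in 389 runs of at least 5 neighbouring silent genes, and 760 stood alone. Only 13403 of the 13937 genes could be ordered. The others were skipped, so an expressed gene may lie within a run and runs may be shorter than given. The longest run held 45 genes on arm 3L, from *l(3)72Dr* to *CG33257*, of which 25 had no count in either library. A run of 22 genes on 3L from *Ets65A* to *Prdm13* contained 18 cuticle genes. Another of 23 genes on 3R extended from *Osi1* to *Osi18*, through the *Osiris* family, and its highest member reached 0.0834 TPM. Many gene families of the fly are arranged in clusters of copies, so neighbours in such runs are often related genes and do not count as independent observations.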

How the data were processed

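RNA-seq of S2 cells was analysed in the 2 Control-KD libraries only, grouped by the labels. Per the study's methods, adapters were clipped, reads of less than 20 nt were removed and the rest was mapped to dm3. Per the submitters' processing notes the tools included HISAT2 and Salmon, and their versions are not given in the sources used here. Whether counting used strand is not given either. The authors deposited for each library an estimated count per gene of FlyBase, which is not normalized and need not be whole. The authors also deposited TPM, made with Salmon from these counts and effective gene lengths, which sums to 1000000.

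From these, the mean TPM of both libraries, classes with edges of 1, 10, 100 and 1000 TPM, sums over gene families and medians were computed with Python 3.11.15, NumPy 2.4.6 and pandas 2.3.3, and drawn with Matplotlib 3.10.9. The class and TPM steps were tested on simulated data. No test was run, since no groups are compared. Intervals are not given, and the limit of 3 counts covers counting error only. A gene with at most 3 counts in both libraries was taken as at the floor.

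Of 13937 identifiers, 13389 were named from a table of FlyBase names, 3 from RefSeq synonyms and 86 from the gene table of the study, and 459 stayed unnamed, which held 7.10% and 7.17% of counts. List members that could not be matched are not analysed here. Chromosome arms, gene order and gene overlaps came from the Release 6 annotation, with genes matched by name (13416 genes had an arm). Its coordinates were not set against those of dm3, since the assemblies differ.

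The libraries, the 62 gene lists and the 20 gene pairs were chosen with earlier results of these data known. After the levels were seen, the name patterns for ribosomal protein, cytochrome P450 and accessory gland genes were corrected (*RpL37* genes added, cyclophilins and *Acp1* removed), older symbols were mapped to current ones, and signalling genes were sorted by role. Genes are named where they are the highest, the defining or, in mostly silent lists, the only members over 10 TPM, where they are among the 15 highest genes or the 10 highest outside the lists, or where they are among the 5 that differ most between the libraries. Not every gene under this rule is reported here. *Elys* and the polyadenylated histone genes were added after their values were seen. Alternatives were other edges for silent genes, either library left out, both libraries over the edge, at least 10 counts in both libraries, TPM from full gene length, TPM without mitochondrial genes, shares of counts, and a pseudocount of 1 in place of 0.1 TPM. The knockdown libraries and DamID-seq domains were left out.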

Additional observations from a re-analysis of the deposited data

How the results depend on the processing

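The numbers of genes in the 5 classes stayed within 1.5 times of those given under all alternatives run. Silent genes numbered 5007 when fewer than 10 counts in a library replaced 1 TPM, and 5886 or 6790 with an edge of 0.5 or 2 TPM. Leaving out either library gave 6391 to 6401. The share of ribosomal protein genes was 16.5% of estimated counts instead of 38.7% of TPM, and 39.2% of TPM without mitochondrial genes (38.5% to 38.9% with either library left out). The ratio of X to autosome medians was 0.881 for genes over 10 TPM, 1.02 for all genes with a count, and 0.844 to 0.856 with either library left out, where genes over 1 TPM were chosen in the remaining library. The SD of the log2 ratio between libraries, 0.34 over all genes, was 0.14 with a pseudocount of 1 TPM and 0.17 among genes with at least 10 counts in both libraries.

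Of 62 lists, the number of genes over 1 TPM moved by more than 1.5 times in 19 when at least 10 counts in both libraries was asked instead of 1 TPM. Among these, neuronal adhesion genes numbered 9 instead of 0, germline genes 12 instead of 6 and cytochrome P450 genes 46 instead of 28, so that silent here means low and not always undetected. With edges of 0.5 and 2 TPM, 6 and 4 lists moved. TPM from full gene length moved 0 of 62 lists. It moved 11 of 602 genes checked by more than 1.5 times, and either library left out moved 10. The classes of single histone copies depend on the library used. No paired analysis was possible because only 1 group was described and no test was run. Promoter motifs by class and protein identity of gene pairs were not run, since no sequences were used here.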
